A study of Homo sapiens with 18 samples.

Results

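The sites described here are the 36858 peaks of 2 anti-ETO lists from Kasumi-1 cells, an established human line of acute myeloid leukaemia that carries the t(8;21) translocation: 14264 peaks in control cells and 22594 after knockdown of the microRNA miR-130a, of 85981 peaks in the 4 single-antibody lists of the series. A control peak was called kept if it overlapped a knockdown peak by at least 1 bp and lost if it did not. A knockdown peak was kept if it overlapped a control peak and gained otherwise. The cells of every group expressed Flag-tagged AML1-ETO and were sorted as viable GFP+ cells 3 days after transduction, with 200000 cells per experimental condition. CUT&RUN, in which an antibody tethers a nuclease that releases the DNA around a bound protein, was run with an antibody against ETO in 3 control and 3 knockdown libraries, with an anti-Flag antibody in 3 and 3, and with mouse IgG in 3 and 3. The labels name neither the vector of the control nor the agent that depleted miR-130a. Both conditions are derivatives of 1 cell line, and nothing in the labels says whether the 3 libraries of a group came from separate cultures.

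AML1-ETO joins the DNA-binding Runt domain of RUNX1 to most of the corepressor protein ETO, encoded by RUNX1T1. The fusion binds RUNX sites together with CBFB and with haematopoietic factors such as ERG, FLI1, LYL1, LMO2 and TCF12, and its ETO part recruits NCoR complexes that hold HDAC3, GPS2, TBL1X and TBL1XR1. It is best known for holding back myeloid differentiation genes, among them those for C/EBP factors, PU.1 and granule proteins, while other target genes are active in the presence of the fusion.

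Promoters of listed genes lay under sites of all 3 classes, and 6 are printed to show the DNA concerned: RUNX1 and RUNX2 as kept, CTSG and IL3RA as lost, and TBL1X and NCOR1 as gained. Each is the 250 bases before an annotated gene start, from the RefSeq table of GRCh38.p14, 5′ to 3′ on the strand of the gene. Capitals mark matches on either strand to the RUNX core TGTGGT, the ETS sequence CCGGAAG, the GC box GGGCGG, the AP-1 sequence TGANTCA or the E-box CAGGTG.
RUNX1 (kept, chr21:34888700-34888949, minus strand): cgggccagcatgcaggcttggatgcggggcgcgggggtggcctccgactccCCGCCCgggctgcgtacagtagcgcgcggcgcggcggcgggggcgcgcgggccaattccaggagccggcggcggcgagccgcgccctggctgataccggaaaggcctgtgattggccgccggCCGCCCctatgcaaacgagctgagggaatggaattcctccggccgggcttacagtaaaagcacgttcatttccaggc
RUNX2 (kept, chr6:45422025-45422274, plus strand): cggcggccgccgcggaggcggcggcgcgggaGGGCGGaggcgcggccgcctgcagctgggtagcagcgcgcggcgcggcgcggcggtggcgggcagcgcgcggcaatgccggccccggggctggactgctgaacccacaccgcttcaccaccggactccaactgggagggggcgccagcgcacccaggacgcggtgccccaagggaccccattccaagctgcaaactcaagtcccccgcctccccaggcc
CTSG (lost, chr14:24576251-24576500, minus strand): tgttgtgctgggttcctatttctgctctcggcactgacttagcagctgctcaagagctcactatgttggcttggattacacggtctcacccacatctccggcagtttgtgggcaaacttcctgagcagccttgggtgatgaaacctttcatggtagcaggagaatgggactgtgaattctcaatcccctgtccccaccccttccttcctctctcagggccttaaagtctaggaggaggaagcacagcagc
IL3RA (lost, chrX:1336535-1336784, plus strand): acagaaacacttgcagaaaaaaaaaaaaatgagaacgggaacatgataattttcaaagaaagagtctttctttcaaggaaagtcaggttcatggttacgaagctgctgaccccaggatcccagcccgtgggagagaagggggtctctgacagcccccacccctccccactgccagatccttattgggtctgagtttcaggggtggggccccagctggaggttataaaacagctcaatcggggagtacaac
TBL1X (gained, chrX:9464808-9465057, plus strand): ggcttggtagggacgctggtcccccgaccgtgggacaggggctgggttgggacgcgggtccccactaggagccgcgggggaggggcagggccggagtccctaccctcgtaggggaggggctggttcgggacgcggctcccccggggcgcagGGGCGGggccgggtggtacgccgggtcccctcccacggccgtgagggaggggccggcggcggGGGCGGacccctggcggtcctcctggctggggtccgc
NCOR1 (gained, chr17:16215535-16215784, minus strand): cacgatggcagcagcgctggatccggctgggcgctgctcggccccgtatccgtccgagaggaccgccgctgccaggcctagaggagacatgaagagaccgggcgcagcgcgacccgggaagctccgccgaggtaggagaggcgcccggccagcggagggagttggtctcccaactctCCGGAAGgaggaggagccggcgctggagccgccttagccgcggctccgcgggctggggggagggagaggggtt
The kept sites at RUNX1 covered all 250 printed bases in both conditions, with 2476 bp in control and 2997 bp in knockdown, and so did those at RUNX2, with 2265 and 2338 bp. The lost site at CTSG, the gene for the neutrophil protease cathepsin G, was 198 bp long and covered 28 of the printed bases. The lost site at IL3RA, the gene for the interleukin-3 receptor alpha chain, was 397 bp long and covered 192 of them. The gained site at TBL1X (260 bp) covered 132 printed bases, and the gained site at NCOR1 (185 bp) lay just downstream of the gene start, beyond the printed bases, with its centre 113 bp after the start. GC boxes stood in the windows of RUNX1 (2 matches), RUNX2 (1) and TBL1X (2), and an ETS match in that of NCOR1 (1). The RUNX core was in none of these 6 windows, which says only that those letters are absent from this stretch.

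Most control sites were found again after knockdown, and the knockdown list added many more. Of the 14264 control peaks, 12977 (91.0%, 95% Wilson interval 90.5 to 91.4) were kept and 1287 (9.02%, 8.56 to 9.5) were lost. Of the 22594 knockdown peaks, 12595 (55.7%, 55.1 to 56.4) were kept and 9999 (44.3%, 43.6 to 44.9) were gained. There is 1 list per condition and no value per library, so the spread between libraries is unknown, no test over samples was possible, and these intervals cover counting error over peaks only. With the knockdown list shortened to its 14264 widest peaks, 76.1% of control and 71.6% of knockdown peaks were kept, leaving 3408 lost and 4051 gained. Lists of equal length make those 2 counts nearly equal by arithmetic, so they say nothing of the source of the excess. The part of sequencing depth or of the calling threshold in the longer knockdown list was not tested.

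Sites in 1 condition alone were short. Lost sites had a median width of 265 bp (quartiles 193 and 390), against 491 bp (332 and 827) for kept sites in control. Gained sites had a median of 347 bp (244 and 446), against 682 bp (423 and 1121) for kept sites in knockdown. In control, 79.0% of the 2870 peaks under 250 bp were kept, 88% of the 4961 peaks from 250 to under 500 bp, 97.8% of the 4064 from 500 to under 1000 bp and 99.9% of the 2369 longer ones. The share kept thus increased over the 4 width bands. In knockdown the shares were 31.3%, 36.2%, 72.6% and 96.1% over the same bands, so that a wide peak in either list nearly always had a partner. Width is a measure from the lists that define the classes, so these values are a description. At the 10916 sites with 1 interval in each list, the knockdown interval was wider at 8227 (75.4%) and narrower at 2563, with a median ratio of 1.19 (quartiles 1.00 and 1.64). Splits and joins were seen in both directions: 783 knockdown peaks overlapped 2 or more control peaks, and 464 control peaks overlapped 2 or more knockdown peaks.

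**Figure D1:**
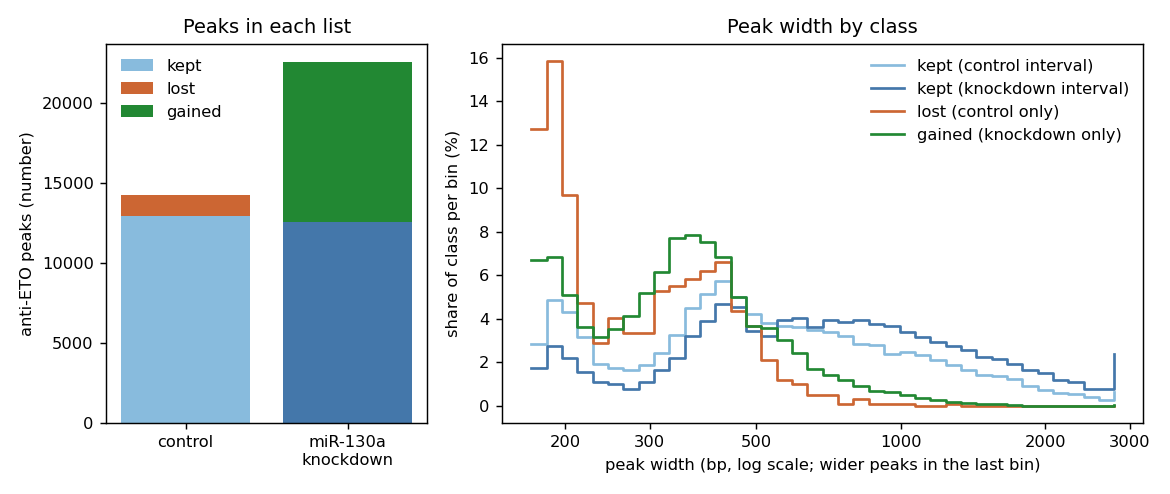
Number of anti-ETO peaks in each list (left, stacked by class) and the distribution of peak width for each class (right, log axis, share of the class per bin). Lost and gained peaks concentrate below 500 bp, while kept peaks extend past 1000 bp, further in knockdown than in control.

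Kept sites lay mainly within 1 kb of a gene boundary, and gained sites were more often elsewhere inside genes. A gene boundary, meaning either end of an annotated gene, was at most 1 kb from the centre of 7695 of the 12595 kept knockdown peaks (61.1%, 60.2 to 61.9), against 3743 of the 9999 gained peaks (37.4%, 36.5 to 38.4). The difference was -23.7 percentage points (odds ratio 0.381, adjusted p = 1.7e-275 by Fisher's exact test, two-sided, with peaks as units). Lost peaks lay in between, with 589 of 1287 (45.8%, 43.1 to 48.5) near a boundary. Their difference from kept control peaks (61.0%) was -15.2 points (odds ratio 0.540, adjusted p = 1.5e-25 by Fisher's exact test). Gained minus lost peaks came to -8.33 points (odds ratio 0.709, adjusted p = 9.9e-09, with the Benjamini-Hochberg method applied to these 3 Fisher's exact tests). Elsewhere inside a gene lay 44.1% of gained, 35.7% of lost and 28.1% of kept knockdown peaks. Outside genes lay 18.4% of gained and 18.6% of lost peaks, against 10.8% of kept ones. Peaks are not replicates and neighbouring peaks are not independent, so these p-values compare 2 lists and not the conditions. With a boundary of 2500 bp the first difference was -15.1 points and the third no longer passed (-1.50 points, adjusted p = 0.309 by Fisher's exact test). With the knockdown list shortened, the second was -3.29 points (57.1% of lost, 60.4% of kept sites) and the third -22.7, and with sites of 250 to 500 bp, chosen after the data were seen, the third was -5.12.

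Gene starts and ends could be told apart for the 27305 genes with a strand in the promoter table. No start on chromosome 8 was used, and peaks on that chromosome and in the mitochondrial genome were left out here. Within 1 kb of a start lay 53.3% (52.4 to 54.2) of 12153 kept knockdown peaks, 37.7% (35.0 to 40.4) of 1240 lost and 28.2% (27.3 to 29.1) of 9627 gained peaks. Gene ends without a nearby start held few sites of any class, 3.28% of kept knockdown, 2.58% of lost and 4.84% of gained peaks. Centres within 1 kb of a start lay on both sides of it, and 56.6% of kept, 54.6% of lost and 57.1% of gained ones were downstream, with median signed distances of 63.0, 52.0 and 94.0 bp. Exons and introns were not distinguished here.

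**Figure D2:**
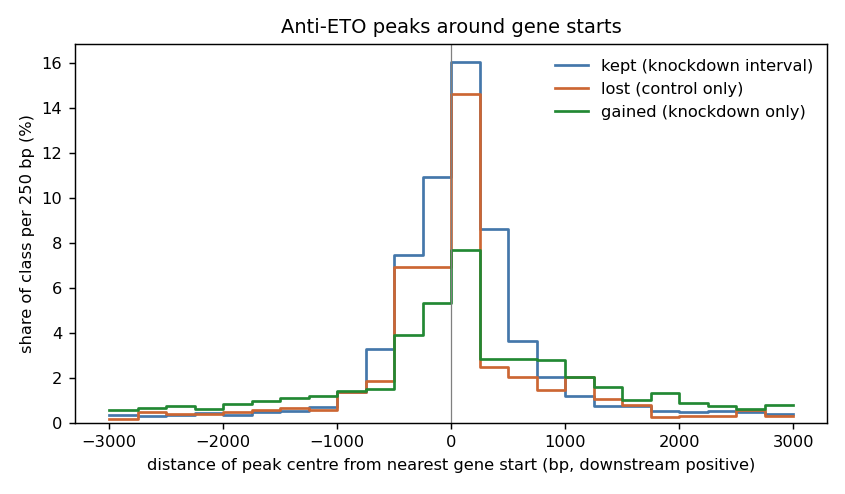
Share of each class (percent per 250 bp, vertical) by the distance of the peak centre from the nearest annotated gene start (horizontal, bp, downstream positive), without chromosome 8. Kept, lost and gained peaks all have their highest bin just downstream of the start, and the gained curve is the lowest there.

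Promoter windows under ETO sites were rich in G and C whatever the class. Of 35116 windows of 300 bases, none of them on chromosome 8, 7669 lay under a kept site, 362 under a lost and 1715 under a gained site alone. Their median GC contents were 68.0%, 65.3% and 66.0%, against 53.3% in the 25356 windows without a site. The GC box was found in 77.4% of kept, 71.3% of lost and 72.6% of gained windows and in 45.0% of all windows. The ETS sequence, bound by factors such as ERG, FLI1 and PU.1, was in 18.4%, 23.2% and 20.5%, against 10.3% of all windows. The RUNX core went the other way, with 10.4% (9.74 to 11.1) of kept, 8.56% (6.10 to 11.9) of lost and 7.64% (6.47 to 8.99) of gained windows, against 13.1% of all. Among windows with 60 to 70% GC, a band chosen after the shares were seen, the RUNX core was in 10.7% (9.62 to 11.8) of kept, 6.92% (3.91 to 12) of lost, 6.14% (4.60 to 8.14) of gained and 9.98% of windows without a site. In that band the ETS sequence was in 20.8% of kept, 28.3% (21.9 to 35.8) of lost and 23.6% (20.6 to 26.8) of gained windows. It was in 13.5% of windows without a site and 16.9% of all. The GC box was in 77.2% of kept, 75.5% of lost and 74.8% of gained windows. It was in 60.7% of windows without a site and 67.4% of all. AP-1 sequences were in 3.56% of kept and 7.71% of all windows, but in 3.89% (3.27 to 4.63) and 4.30% (3.91 to 4.73) within the band. E-box sequences were in 17.3% and 20.6%, and in 18.7% and 23.5% within the band. Matches were searched on both strands, none of the 5 motifs contains another, and a match is a description of the letters, not a bound site.

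Gained sites had a kept site nearby more often than lost sites did. The nearest kept site was within 10 kb for 6132 of the 9999 gained peaks (61.3%, 60.4 to 62.3) and for 471 of the 1287 lost peaks (36.6%, 34.0 to 39.3). Within 1 kb the shares were closer, 27.0% of gained and 21.0% of lost peaks. These distances come from the intervals that define the classes, so they are a description without a test. Where partners had to share 50% or more of each peak, the shares within 10 kb were 52.4% of gained and 46.2% of lost peaks. Median distances were 5.20 kb for gained and 26.3 kb for lost peaks. Kept control peaks had another kept peak within 10 kb in 59.8% of cases, close to the share of gained peaks. Some lost and gained sites were neighbours of each other: 187 lost peaks (14.5%, 12.7 to 16.6) had a gained peak within 1 kb.

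**Figure D3:**
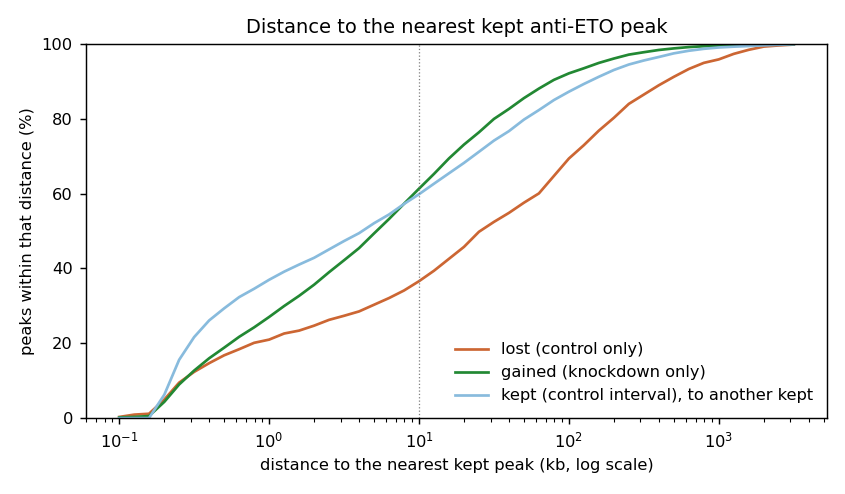
Cumulative share of lost and gained peaks (vertical, percent) by distance to the nearest kept peak (horizontal, kb, log scale), with kept control peaks to the next kept peak for comparison. At the dotted line of 10 kb the curves stand at 36.6% for lost, 61.3% for gained and 59.8% for kept peaks.

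Many gained sites also lay near each other, while 45.4% of them had no other gained site within 10 kb. Closeness was not particular to this class, since 59.8% of kept control peaks had another kept peak within 10 kb. Joined wherever their edges were at most 10 kb apart, the 9999 gained peaks formed 6428 runs, and 3116 of them (31.2%) stood in 716 runs of 3 or more. The 1287 lost peaks formed 1239 runs, of which 2 held 3 peaks. The 2 classes differ in number of peaks, which alone makes longer runs likelier for gained ones. The longest run held 36 gained sites over 153 kb of chromosome 19 (1173017 to 1325532), across STK11, the tumour suppressor kinase, and across SBNO2, MIDN, CIRBP and EFNA2. That stretch also held 27 control ETO peaks. The next run, of 33 gained sites over 71.7 kb of chromosome 8 (143615146 to 143686795) at GFUS, ZNF623 and ZNF707, held 5 control ETO peaks but 41 control Flag peaks. A run of 21 sites lay close by at CCDC166, MAPK15 and FAM83H (143699952 to 143787335), with 2 control ETO and 38 control Flag peaks. The others in the top 5 were 24 sites on chromosome 11 (67252741 to 67329006) at KDM2A, the histone demethylase, GRK2 and SSH3, and 20 sites on chromosome 19 (984858 to 1036996) at WDR18, TMEM259 and CNN2. Control Flag peaks outnumbered control ETO peaks in each of these top 5 stretches, not on chromosome 8 alone. Flag peaks were also the more numerous over the series, where 36858 of the 85981 peaks in the 4 lists were ETO peaks. The counts in these stretches were not set against the ratio of the whole control lists. Flag and ETO counts in control were 59 and 27 in the longest run and 34 and 17 on chromosome 11. They were 23 and 5 in the run of 20 sites on chromosome 19. Runs were picked by gained ETO sites, so few control ETO peaks there follow in part from the choice. The lost runs were small: 3 sites over 2.16 kb of chromosome 21 (5601797 to 5603957) with no gene under them, 3 over 5.52 kb in RET, a receptor tyrosine kinase (chromosome 10, 43078322 to 43083845), and 2 over 1.11 kb in MTURN (chromosome 7, 30159245 to 30160358).

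Chromosomes with many genes took more gains and fewer losses. The gained share of knockdown peaks was 51% (48.9 to 53.1) on chromosome 17 and 49.7% (47.8 to 51.6) on chromosome 19, and 28.3% (22.5 to 34.9) on chromosome 18 and 34.1% (28.6 to 40.2) on chromosome 13. The lost share of control peaks was 5.10% (4.09 to 6.35) on chromosome 19 and 18.4% (14.7 to 22.7) on chromosome X. Over 23 chromosomes, Spearman's rho with protein-coding genes per Mb was 0.771 for the gained and -0.650 for the lost share, a description over points that share the same 2 lists. Copy number differences between chromosomes of this line were not measured here.

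**Figure D4:**
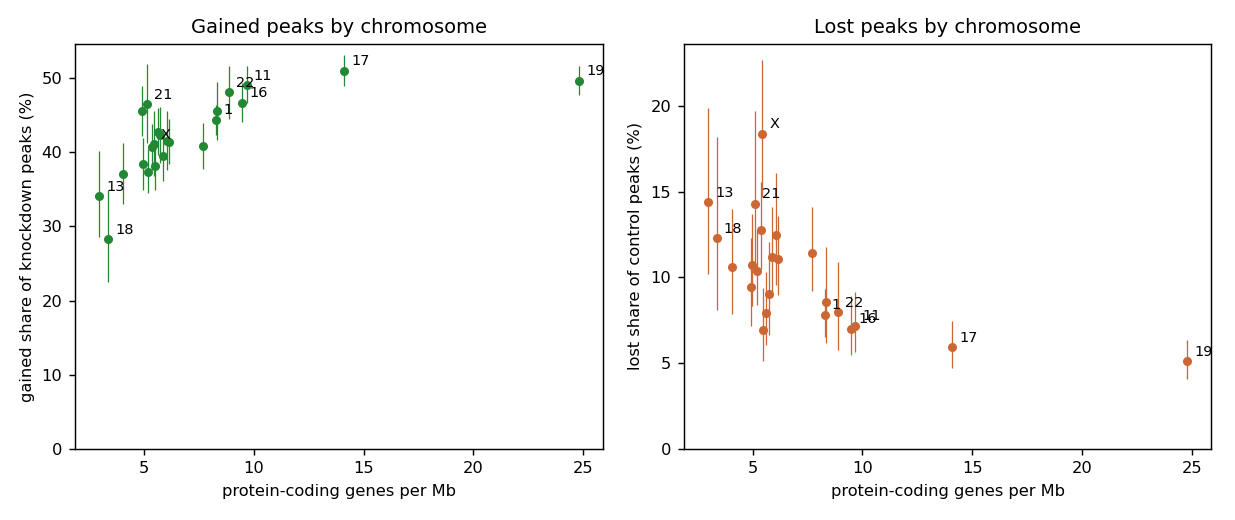
Gained share of knockdown peaks (left) and lost share of control peaks (right), in percent, by protein-coding genes per Mb for 23 chromosomes, with 95% Wilson intervals over peaks. Chromosomes 17 and 19 sit high on the left and low on the right, chromosomes 13 and 18 the reverse.

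The anti-Flag lists give a readout of the tagged fusion alone, and they did not enter the classes. The ETO antibody does not depend on the tag, and the translocation of this cell line can supply untagged fusion. A missing Flag call therefore does not show that the fusion was absent from a site. In knockdown, 9447 of the 12595 kept peaks (75.0%, 74.2 to 75.8) overlapped a knockdown Flag peak, against 4841 of the 9999 gained peaks (48.4%, 47.4 to 49.4), a difference of -26.6 points (odds ratio 0.313, adjusted p = 4.4e-372 by Fisher's exact test). In control, 92.5% of kept and 60.3% (57.6 to 62.9) of lost peaks overlapped a control Flag peak, a difference of -32.2 points (odds ratio 0.123, adjusted p = 1.4e-194 by Fisher's exact test). Kept sites were called in both ETO lists and were wider, so a higher Flag share at them could follow from the class rule alone. These p-values, with peaks as units, do not compare the conditions. Width moved with the first difference, which was -8.83 points (47.1% of gained and 55.9% of kept) among peaks of 250 to 500 bp. The second was -27.5 points there (62.4% of lost and 89.9% of kept). That setting was chosen after the data were seen. At 2814 gained sites (28.1%) Flag was called in both conditions, and at 3683 (36.8%) in neither. Flag alone in knockdown was found at 2027 gained sites (20.3%) and Flag alone in control at 1475 (14.8%). Of the lost sites, 671 (52.1%) had a Flag call in control alone, 105 (8.16%) in both conditions and 497 (38.6%) in neither. Kept control peaks also had Flag in control alone at 2552 sites (19.7%), in both conditions at 72.9% and in neither at 5.04%. A Flag call in control alone was thus not confined to lost sites.

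The widest kept sites spanned 10470 bp at FAM99A on chromosome 11 (1666740 to 1677209), 6852 bp on chromosome 3 (198099867 to 198106718) with no gene under it, and 6754 bp across CDHR4, INKA1 and UBA7 on chromosome 3 (49801557 to 49808310). All 3 had Flag calls in both conditions. The widest lost sites were far shorter, with 1281 bp in BRI3BP on chromosome 12 (124994035 to 124995315) and 1035 bp in ZFAND5 on chromosome 9 (72365090 to 72366124). Both had a Flag call in control alone. Among gained sites the widest was a single call over 15932 bp of the mitochondrial genome (621 to 16552), with no Flag call in either condition and no control ETO peak. The next were 1786 bp in CCDC57 on chromosome 17 (82211951 to 82213736), with Flag calls in both conditions, and 1632 bp on chromosome 12 (56688558 to 56690189), 274 bp from PTGES3, with a Flag call in knockdown alone.

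Gene by gene, kept sites were the most common class and gains were mostly added to genes that already had a site. Of 20056 protein-coding genes, 8983 (44.8%) had a kept site in the gene or within 10 kb, 6879 (34.3%) a gained and 1375 (6.86%) a lost one. No ETO site was found at 8925 genes (44.5%). Kept sites alone were found at 3558 genes (17.7%), kept and gained sites at 5103 (25.4%), and gained and lost sites at 681 (3.40%). Gained sites alone were found at 1614 genes (8.05%) and lost sites alone at 372 (1.85%). A window can reach into neighbouring genes, so a site may count for several genes. With the knockdown list shortened, 3803 genes had a gained and 3605 a lost site.

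Among genes with gained sites alone, AANAT, which encodes the enzyme that acetylates serotonin on the way to melatonin, had 7 sites on chromosome 17 between 76451999 and 76479905, and GCGR, the glucagon receptor gene, had 7 between 81794610 and 81822441. All 7 sites at AANAT had a control Flag call and 5 of them a knockdown Flag call. BCORL1, a transcriptional corepressor gene on chromosome X, had 6 gained sites between 129981001 and 130061231, of which 0 had a control and 1 a knockdown Flag call. PRR19 and PAFAH1B3 followed with 5 each on chromosome 19, chosen by covered width among the 15 genes with 5 or more. Their sites lay between 42296129 and 42314031 and between 42288596 and 42312021. These stretches overlap, so the same site can count for both genes. Lost sites alone came in smaller numbers, with 2 each at CAMK2D, a calcium/calmodulin-dependent kinase gene, ARHGAP24, PLD1, RAPGEF3 and DOK2, an adaptor that dampens signalling in blood cells. These 5 were chosen by covered width among the 24 genes with 2 or more lost sites alone. The losses at CAMK2D, ARHGAP24 and RAPGEF3 were all sites with a control Flag call and no knockdown Flag call.

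The members of 8 gene lists chosen for their link to AML1-ETO or to blood cells were counted in the same way. Of the 83 protein-coding members, 55 had a kept, 45 a gained and 14 a lost site, against 44.8%, 34.3% and 6.86% of all protein-coding genes. The members were picked as genes of interest in blood cells and with earlier results known, so these shares describe the lists alone. The same shares of all protein-coding genes are the background for each protein-coding list below. Summed over the 83 genes, with a site near several genes counted for each, there were 186 gene-site pairs in control and 273 in knockdown. Over all 20056 protein-coding genes the same counts were 20696 and 32443, so a higher count in knockdown was not particular to the listed genes. Of the members, 11 had a knockdown site and no control site, against 8.12% of all protein-coding genes. CTSG was the single member with a control site and no knockdown site, against 1.86% of all.

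Of the 7 genes of the fusion partners and the core-binding factor, 6 had kept sites, 5 gained and 2 lost sites. RUNX1 had 12 control and 16 knockdown sites, of which 1 was lost (chromosome 21, 34808245 to 34808692) and 4 gained, the longest of these 316 bp. CBFA2T3, the ETO family member ETO2, had 11 and 14 sites with 4 gained, and CBFB, the partner subunit of RUNX proteins, had 4 and 6 with 3 gained. RUNX3 had 4 control and 5 knockdown sites, with 1 lost and 2 gained, and RUNX2 4 and 5, with 1 gained. CBFA2T2 had 2 and 2. RUNX1T1, which encodes ETO itself, had no site in either list.

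Of the 10 corepressor genes, 8 had a gained, 6 a kept and 1 a lost site. Among all protein-coding genes the shares were 34.3%, 44.8% and 6.86%. A knockdown site without any control site was found at 3 members, against 8.12% of all protein-coding genes. TBL1XR1, a subunit of the NCoR complex and the gene named in the study's title, had 1 gained site of 477 bp inside the gene (chromosome 3, 177198076 to 177198552), upstream of the nearest annotated start at a signed distance of -832 bp, with no Flag call in either condition. Its paralogue TBL1X had 2 gained sites at its promoter (chromosome X, 9464926 to 9465185 and 9465458 to 9465640), without a Flag call. NCOR1, a scaffold of the complex, had 2 gained sites (chromosome 17, 16215329 to 16215513 and 16217032 to 16217340), of which the second had a Flag call in control. GPS2 had 1 control and 4 knockdown sites, with 3 gained, SIN3A 3 and 7, with 3 gained, HDAC1 4 and 4, with 2 gained, and HDAC3, the catalytic subunit, 4 and 5, with 1 gained. HDAC2 had 2 control and 1 knockdown site, both control sites being kept, and SIN3B had none.

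Of the 12 partner transcription factors and coactivators, 9 had gained, 8 kept and 2 lost sites. ERG, an ETS factor found with AML1-ETO on chromatin, had 0 control and 4 knockdown sites, 3 of them side by side in the gene (chromosome 21, 38476083 to 38477577) and 1 at 38505671 to 38506059. A Flag call in knockdown was found at 1 of the 4. FLI1, a related ETS factor, had 1 lost site (chromosome 11, 128696104 to 128696314) and 1 gained site just beside it (128695758 to 128695953), both with a control Flag call. GATA2, a stem cell factor, had 0 control sites and 1 gained site of 382 bp, 585 bp after a gene start (chromosome 3, 128487754 to 128488135). LDB1, a scaffold that bridges LMO2 and other factors, had 3 control and 7 knockdown sites, with 1 lost and 5 gained. TCF3 had 4 and 8 with 2 gained, LYL1 6 and 7 with 2 gained, and PRMT1, JMJD1C and EP300 had 1 gained site each. LMO2 and TCF12 had kept sites alone, and TAL1 had no site.

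Of the 12 myeloid transcription factor genes, 9 had a kept, 3 a gained and 2 a lost site. Among all protein-coding genes the shares were 44.8%, 34.3% and 6.86%. CEBPA, the central granulocyte factor, had a single kept site at its start, with widths of 1209 bp (control) and 1481 bp (knockdown). SPI1, which encodes PU.1, had 3 control and 5 knockdown sites, with gained sites of 308 and 397 bp inside the gene. GFI1, a repressor needed for neutrophils, had a kept site over its starts, with widths of 4038 bp (control) and 5652 bp (knockdown), and 2 gained sites of 232 and 179 bp. EGR1, an immediate early factor, had 1 gained site. Losses were seen at IRF8, a monocyte and dendritic cell factor, with 5 control and 3 knockdown sites, 1 of them lost (chromosome 16, 85915082 to 85915558), and at CEBPB, with 3 and 2 sites, 1 of them lost (chromosome 20, 50186196 to 50186585). Both lost sites had a control Flag call and no knockdown Flag call. GFI1B, NFE2 and CEBPD held kept sites alone, and CEBPE and KLF4 held none.

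Among granule proteins and myeloid receptors, 9 of 14 members had gained, 10 kept and 4 lost sites. Gains were dense in 1 neighbourhood, the gene cluster of the neutrophil proteases azurocidin (AZU1), proteinase 3 (PRTN3) and elastase (ELANE) on chromosome 19. With 10 kb on either side this stretch held 5 control and 15 knockdown ETO sites, of which 5 were kept, 10 gained and 0 lost, while Flag peaks numbered 20 in control and 24 in knockdown. ELANE alone had 4 control and 11 knockdown sites, none of them centred in the gene itself, and its 7 gained sites were 175 to 657 bp wide. The centre of the widest lay 173 bp from the gene boundary (851802 to 852458). All 7 had a Flag call in knockdown and 5 had one in control. The gene for another neutrophil protease showed the opposite: the only site at CTSG was lost, upstream of the start at a signed distance of -322 bp (chromosome 14, 24576473 to 24576670), and it had a Flag call in control and none in knockdown. MPO, the myeloperoxidase gene, had 4 control and 3 knockdown sites, all kept.

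The receptor genes differed among themselves. CSF1R, the macrophage colony-stimulating factor receptor gene, had 2 control sites (805 and 294 bp) that both overlapped a single knockdown site of 927 bp. CSF2RA and IL3RA, receptor genes in the pseudoautosomal region of X, each had 1 lost site, with 2 and 3 gained ones. At IL3RA the lost site (1336593 to 1336989) lay on the gene start and a gained site of 189 bp began just downstream of it (1337198 to 1337386), so the start kept a call nearby. SELPLG, the P-selectin ligand gene, had 4 control and 4 knockdown sites, with 2 lost and 2 gained. CSF3R, ITGAM and LYZ had 1 gained site each beside kept ones, CD14 had kept sites alone and CSF2RB had none.

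Stem and progenitor regulators had the lowest share of members with a kept site among the 8 lists, with kept sites at 4 of 12, gained sites at 3 and a lost site at 1. KIT, the stem cell factor receptor gene, had 3 sites in each list, all kept, and the site nearest its start measured 235 bp (control) and 592 bp (knockdown). CD34 had 1 kept site of 446 and 364 bp, and HOXA9 1 kept site. FLT3, the receptor of FLT3 ligand, had 0 control sites and a gained site of 754 bp over its start (chromosome 13, 28100349 to 28101102), with a Flag call in control and not in knockdown. MECOM had 1 gained site of 175 bp and no site in control. MYC had 5 control and 3 knockdown sites with 1 lost (chromosome 8, 127737201 to 127737464), and 2 of its control sites were joined in 1 knockdown site of 1578 bp. MEIS1, HLF, MYCN, PROM1 and SPINK2 had no ETO site.

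Of the 16 signalling, repair and cell cycle genes, 12 had kept, 8 gained and 2 lost sites. OGG1, a base excision repair gene known to be repressed by AML1-ETO, had 3 kept sites and gained 3 (526, 927 and 300 bp), each with a Flag call in knockdown. UBASH3B, a phosphatase gene of receptor signalling, had 6 control and 8 knockdown sites with 1 lost and 2 gained. CCND3, a cyclin D gene, had 10 and 12 with 3 gained. ID1, an inhibitor of E proteins, was the member with the most losses among these, 2 of its 4 control sites (chromosome 20, 31604235 to 31604582 and 31610725 to 31610981), while its relative ID2 had 0 control and 2 gained sites. CDKN1A, which encodes the cell cycle inhibitor p21, had 1 gained site and no control site, and JAG1 and BCL2 had 1 gained site each beside 2 kept ones in each list. LAT2, CCND1, CCND2, CDK6, PLCG1 and UBASH3A had kept sites alone, and POU4F1 had none.

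Of the 8 blood microRNA genes, 4 had kept, 3 gained and 0 lost sites within 10 kb, against 23.4%, 19.6% and 3.50% of 1913 microRNA genes. MIR126, within the host gene EGFL7 and highly expressed in t(8;21) leukaemia, had 2 control and 6 knockdown sites, 4 of them gained at 186 to 398 bp. MIR223, a granulocyte microRNA, had 2 and 5 with 2 gained, and MIR24-2 had 6 and 6, with 2 gained. MIR193A had kept sites alone. MIR130A itself had no ETO site within 10 kb in either condition, and MIR9-1, MIR155 and MIR221 had none.

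**Figure D5:**
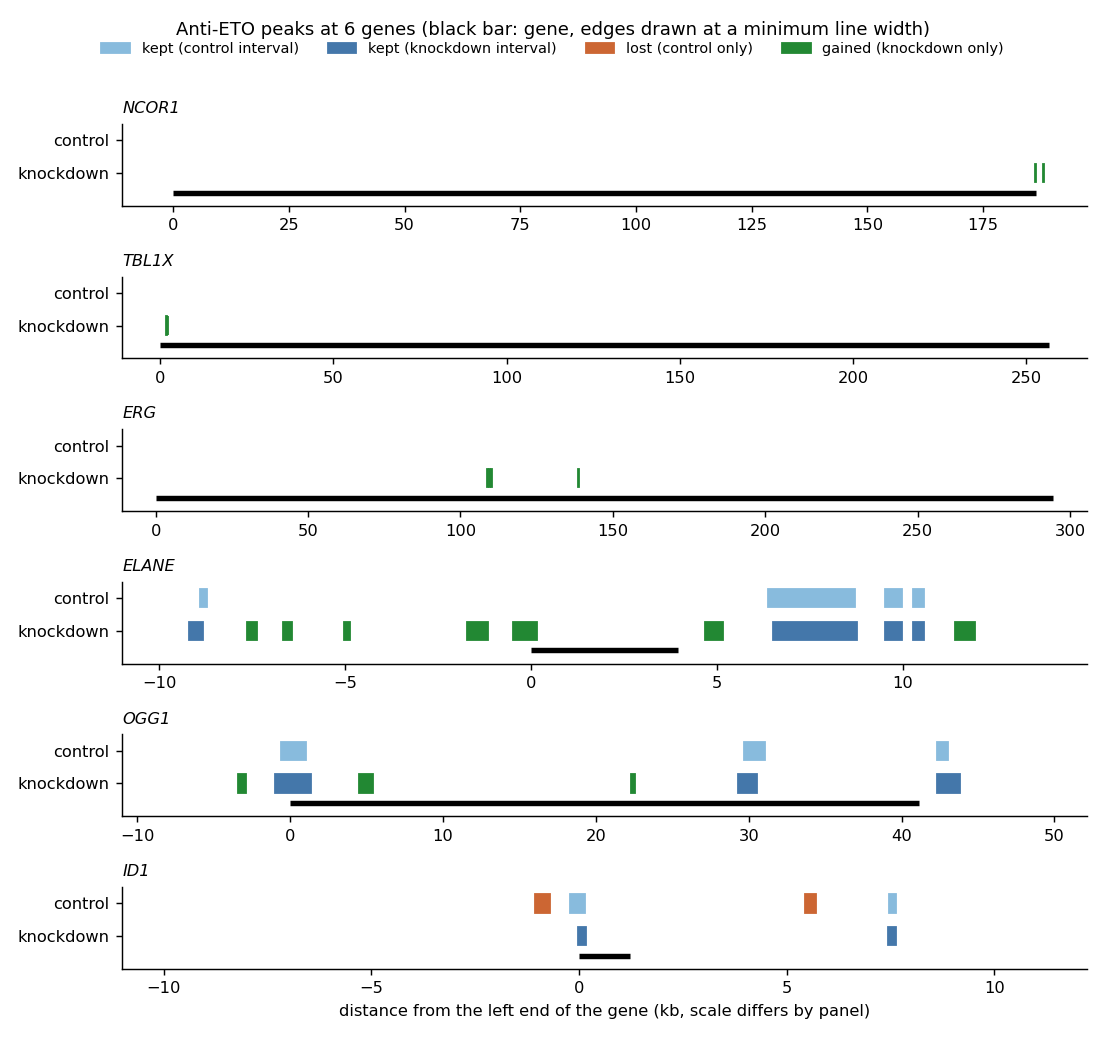
Anti-ETO peaks in control (upper row) and knockdown (lower row) at NCOR1, TBL1X, ERG, ELANE, OGG1 and ID1, drawn by distance from the left end of each gene in kb, with the gene as a black bar and 10 kb on either side. NCOR1, TBL1X and ERG have gained peaks and no control peak, ELANE gains 7 peaks on both sides of the gene, and ID1 loses 2 of 4.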

How the data were processed

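The members and gene lists were chosen with earlier results of these data known. The deposited files are peak intervals (chromosome, start, end) with no score or header, 1 list per antibody and condition with no replicate named; 4 of 9 lists were used here. Per the submitters' processing notes, fastp 0.19.5, Bowtie2 2.3.5, MACS2 2.2.5 and HOMER 4.8 and the builds hg38 and sacCer3 were used; the peak threshold, the use of IgG libraries and the merging of replicates are not given in the sources used here. Per the labels' protocols, fragments of 150 to 400 bp were selected and read as 75-bp pairs, and the depth behind each list is unknown. A longer or more permissive list creates sites unique to its condition.

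Classes came from an overlap of at least 1 bp in Python 3.11.15 (numpy 2.4.6, pandas 2.3.3), and bedtools 2.31.1 gave the same counts. Gene positions are those of RefSeq GRCh38.p14 (59792 genes, 20056 of them protein-coding), which carry no strand; strands came from 35116 promoter windows of 27305 genes, and 62 of 91 listed genes have one. Positions count from 1. Shares carry 95% Wilson intervals (statsmodels 0.14.6). Two-sided Fisher's exact tests compared them over peaks, computed in logarithms with the log-gamma function of scipy 1.17.1. Their p-values were adjusted by Benjamini-Hochberg within families of 3 (boundary) and 2 (Flag). Functions were tested on simulated lists, where the 1200 planted kept sites of 1500 control intervals were recovered. Named were listed genes with a lost or gained site or at least 3 sites, the 3 widest sites of each class, the 5 longest gained and 3 longest lost runs, and the 5 genes with the most gained, or lost, sites alone, with ties taken by covered width; other listed genes are named for completeness, and some sites and genes under this rule are counted but not reported by name here. Printed promoters are the first 2 listed genes of each class.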

Additional observations from a re-analysis of the deposited data

How the results depend on the processing

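Alternatives were other overlap rules, list lengths, chromosome sets, boundary, neighbour and flank distances, and, chosen after the data were seen, gene starts in place of boundaries and sites of 250 to 500 bp. All 5 boundary and Flag differences kept their direction under the 47 alternatives run on them, and 46 stayed on the same side of the threshold; the exception was the boundary share of gained against lost sites at 2500 bp (-1.50 points). The shares of sites kept moved more. Where partners had to share 50% or more of each peak, 64.6% of control and 40.8% of knockdown peaks were kept; with gaps of up to 500 bp allowed, 93.3% and 63.0%; with the knockdown list shortened to the control length, 76.1% and 71.6%. In the wider 50% of each list, 56.6% of knockdown peaks were kept. Genes with gained sites numbered 3803 with the shortened list and 4297 over gene bodies alone, and genes with lost sites 3605 and 767, or 2785 with flanks of 50 kb. Each of these settings changes the lists or windows compared. No paired analysis was possible because each condition has 1 list without replicates, and no replicate could be left out. Precision is limited by depth, which the lists do not give.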

Other observations

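Small RNA genes were counted by overlap with their bodies, a comparison added after the data were seen. Transfer RNA genes, transcribed by RNA polymerase III, had a control ETO site at 53 of 465 (11.4%) and a knockdown site at 91 (19.6%), with 44 in knockdown alone and 6 in control alone. Small nuclear RNA genes had a site at 28 of 156 in control and 30 in knockdown, and protein-coding gene bodies at 35.9% and 43.4%. For microRNA genes the counts were 78 and 109 of 1913, and for small nucleolar RNA genes 7 and 14 of 1199. For ribosomal RNA genes they were 0 and 2 of 55. The knockdown list is the longer one, with 22594 peaks against 14264. A run of 18 gained sites covered 53.2 kb of a transfer RNA cluster on chromosome 1 (161420012 to 161473238) that holds 25 annotated transfer RNA genes and 17 control ETO sites. Transfer RNA genes exist in near-identical copies, so reads there may be assigned to the wrong copy, and how the authors treated such reads is not given in the sources used here.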
